A study of Mus musculus with 1 sample.

Results

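The CD8 T barcodes with few ribosomal protein messages were 150 of the 1600 droplet barcodes above the limit set for a cell in the blood T cell library of 1 mouse. The limit was set on unique molecular identifiers (UMIs), tags that each mark 1 captured RNA molecule, and the lowest barcode above it had 1334. Members were chosen by measured values. A barcode was a member when under 10% of its UMIs fell on ribosomal protein genes, when it held at least 1 UMI of Cd3d, Cd3e or Cd3g and at least 1 of Cd8a or Cd8b1, and when it held no UMI of Cd4, Cd79a or Pf4. The share counts the messenger RNA of 97 detected genes with symbols of ribosomal proteins, called ribosomal protein genes below. They were taken by the start of the symbol, which can also take in genes for other proteins. Ribosomal RNA itself was not measured. Members made up 24.6% (21.3% to 28.3%) of the 609 CD8 T barcodes that pass the same rule at any share, and 9.38% (7.99% to 10.9%) of all 1600 barcodes. The 459 CD8 T barcodes with a share of 10% or more are called ordinary CD8 T barcodes below. Brackets give exact 95% intervals, binomial for a share and Poisson for a level, which cover counting error only. With 1 library from 1 mouse there was no replicate, no test was run and no barcode stands for a replicate of a condition.

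The mouse belonged to the vehicle arm, which received PBS, of a trial in autochthonous small cell lung cancer (SCLC). In this model Rb1 and Trp53 carry conditional alleles that are deleted when an adenovirus with Cre recombinase is given into the trachea, on a C57BL/6 background. From 150 µl of blood, red cells were lysed and T cells were kept by negative selection, which removes other cells by antibody. Gene expression and T cell receptor (TCR) sequences were then read from the same barcodes, and the library of the mouse treated with anti-PD-1 and an ERBB2 inhibitor was not analysed here.

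CD8 T cells recognise peptides on MHC class I, a pathway that tumour cells can shut down to evade T cells. Resting T cells of the blood are small cells in which messages for ribosomal proteins, elongation factors and the actin cytoskeleton make up much of the cytoplasmic messenger RNA. Unspliced transcripts, Malat1 and other nuclear long non-coding RNAs stay in the nucleus, and the 13 mitochondrially encoded messages stay in mitochondria. A droplet barcode reads a mixture of these pools, and its TCR is assembled from TRA and TRB messages.

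Among the 150 members, 41 had a clonotype, and the 41 clonotypes were all different. The contig table was read without 8 barcodes that had no entry in the matrix of gene counts. In it, 2 of the 41 clonotypes were also given to other barcodes, ordinary CD8 T barcodes among them, and their CDR3 sequences are printed below. Whether the TCR UMIs of these 2 members came from their own cells or from free RNA was not tested. The first clone held 9 barcodes, of which 1 was a member, 6 were ordinary CD8 T barcodes and 2 met neither rule. Its member had 4391 UMIs and a ribosomal protein share of 0.98%, and its chains were read with 2 UMIs (TRA) and 1 UMI (TRB). The second clone held 8 barcodes, 1 member and 7 ordinary CD8 T barcodes. This member had 2685 UMIs and a share of 3.61%, and its chains were read with 5 and 2 UMIs for the TRA chains and 6 UMIs for TRB. Sequences run 5′ to 3′ as the contig table gives them, and capitals mark the first codon, for the conserved cysteine, and the last codon, for the conserved phenylalanine:
first clone TRA, TRAV7-4 and TRAJ34: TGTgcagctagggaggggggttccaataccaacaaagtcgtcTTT
first clone TRB, TRBV12-2 and TRBJ1-6: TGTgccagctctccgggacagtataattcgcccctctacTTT
second clone TRA, TRAV8D-2 and TRAJ23: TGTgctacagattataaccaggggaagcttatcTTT
second clone TRA, TRAV13N-1 and TRAJ9: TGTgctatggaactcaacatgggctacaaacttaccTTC
second clone TRB, TRBV1 and TRBJ1-4: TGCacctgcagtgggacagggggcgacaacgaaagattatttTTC
The remaining 39 clonotyped members each carried a clonotype seen in no other barcode of the contig table with an entry in the matrix. TRBV usage was spread, with 17 V genes over 41 TRB contigs, and the most used, TRBV12-2 and TRBV13-1, had 5 contigs each.

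The steps of the rule show how the members arose. Of the 1600 barcodes, 617 had a ribosomal protein share under 10%, 446 of these held a CD3 gene UMI and 186 a CD8 gene UMI as well. A Cd4 UMI removed 13 of the 186, and a Cd79a or Pf4 UMI removed 23 more. A further 137 low barcodes held a CD3 gene UMI but no UMI of Cd8a, Cd8b1 or Cd4, and their lineage is unknown. Cd8b1, the beta chain of the CD8 coreceptor, was found in 136 members, Cd8a in 76 and both genes in 62. The call rested on exactly 1 CD8 gene UMI in 42 members and on exactly 1 CD3 gene UMI in 30. The members held 546 CD8 gene UMIs in all, of which the rule itself required at least 1 in each. A CD8 gene UMI was seen in 0 of 19 low ribosomal B barcodes, which allows up to 17.6%, and in 1 of 59 ordinary B barcodes.

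The limit of 10% lay in a thinly filled part of the range. The member with the highest share had 9.72% and the ordinary CD8 T barcode with the lowest had 10.1%, and 6 members lay between 9% and 10% against 9 ordinary barcodes between 10% and 11%. At the UMI limit, the shallowest member had 1541 UMIs, and no barcode between 1000 UMIs and the limit met the rest of the rule. Low shares were not particular to CD8 T barcodes, since 113 of 318 CD4 T barcodes (35.5%, 30.3% to 41.1%) and 19 of 78 B barcodes (24.4%, 15.3% to 35.4%) also lay under 10%. Scrublet predicted 1 of the 150 members and 10 of the 1600 barcodes as doublets.

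Members held fewer UMIs than ordinary CD8 T barcodes. Their UMI totals ran from 1541 over a median of 3398 to 12628, against 1410, 7502 and 17444 in ordinary CD8 T barcodes. The median member had 1784 genes and the median ordinary barcode 2365. After each barcode was thinned to 900 UMIs outside ribosomal protein genes, a depth chosen after seeing the data that left out 3 ordinary barcodes, the medians were 675 genes in members (565 to 736) and 636.5 in ordinary barcodes (420 to 722), and the groups overlapped. With UMIs of all genes thinned to the number at the limit, the medians were 927.5 (790 to 1018) and 703 (401 to 982). Ribosomal protein shares, which define the groups, had a median of 2.93% in members and 32.9% in ordinary barcodes. Mitochondrially encoded messages took 0.105% to 10.3% of a member's UMIs with a median of 3.16%, and 138 of the 150 members lay above the ordinary median of 1.43%. Only 1 member exceeded 10%, and 20 exceeded 5%.

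In UMIs per barcode the pools differed in direction. Mitochondrially encoded messages had a median of 107.5 UMIs in members and 109 in ordinary CD8 T barcodes, so that the higher share came with an almost equal number of molecules. Ribosomal protein messages had medians of 100 and 2458 UMIs, which is the split itself. Malat1, a long non-coding RNA retained in the nucleus, had a median of 71 UMIs in members and 42 in ordinary barcodes. Genes that span over 100 kb from first to last base gave a median of 1020 UMIs in members and 617 in ordinary barcodes, while genes under 5 kb outside the ribosomal protein genes gave 232 and 817. Members thus held more UMIs of long genes per barcode although their totals were lower. Mitochondrial and Malat1 shares moved with the split, and their part in the values below was not tested. All levels below are UMIs pooled over the barcodes of a group per 10000 UMIs outside ribosomal protein genes. This leaves 526942 UMIs in members and 2344159 in ordinary CD8 T barcodes.

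Each of the markers given for the members other than Cd8b1 was higher in members than in ordinary CD8 T barcodes, and Cd8b1 was lower. Ppm1h (chr10:122514667-122781700, a protein phosphatase gene spanning 267 kb) had 1042 UMIs in 140 members, with a median of 5.5 and a highest value of 35 UMIs per member. Its level was 19.8 in members and 4.36 in ordinary CD8 T barcodes, a ratio of 4.53 (4.15 to 4.94). Ust (chr10:8080518-8394664, a sulfotransferase of proteoglycan chains) had 352 UMIs in 94 members and a ratio of 5.36 (4.58 to 6.28). Auts2 (chr5:131466171-132572183, a nuclear protein of Polycomb complexes) had 235 UMIs in 53 members and a highest value of 16, so that most members held none. Its ratio was 7.02 (5.69 to 8.67). Runx2 (chr17:44806874-45125684, a Runt family transcription factor) had 85 UMIs in 41 members and a ratio of 2.84 (2.14 to 3.76). Over the alternative settings described below, the ratio of Runx2 ran from 1.58 to 6.89. Ppm1h, Ust, Auts2 and Runx2 each span over 200 kb. The 358 genes of that span had a median ratio of 3.16 in the same comparison, and 84.6% of them were at least 2-fold higher. Runx2 stood below that median, at 0.899 of it, and Ppm1h, Ust and Auts2 stood above it. Cd8b1 (chr6:71299772-71315087) had 410 UMIs at a level of 7.78 against 19.3, a ratio of 0.403 (0.363 to 0.446). Positions follow the GENCODE vM39 annotation of GRCm39, and each of these genes is protein coding.

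The 4 genes were also found in a larger share of members after thinning. As markers they were named with earlier results of these data known, so these shares only describe the same barcodes. With each barcode thinned to the number of UMIs at the limit, which left none out, Ppm1h was found in 80.0% of members and 33.3% of ordinary CD8 T barcodes, Ust in 41.3% and 8.1%, Auts2 in 26.0% and 4.4%, and Runx2 in 16.7% and 6.1%. This matched total UMIs, of which members had more outside ribosomal protein genes. Thinned to 900 UMIs outside ribosomal protein genes, the shares were 68.0% and 32.5% for Ppm1h, 37.3% and 9.87% for Ust, 20.7% and 4.61% for Auts2, and 11.3% (6.74% to 17.5%) and 5.04% (3.22% to 7.47%) for Runx2, whose intervals overlapped. Without thinning, Auts2 was found in 35.3% of members and 18.1% of ordinary barcodes. Among barcodes under 4000 UMIs the ratio was 2.62 for Ppm1h, 3.46 for Ust, 13.4 for Auts2 and 1.58 for Runx2, which is under the 2-fold limit. None of the 19 low ribosomal B barcodes held a UMI of any of these 4 genes. Thinned to 900 UMIs outside ribosomal protein genes, low ribosomal CD4 T barcodes held Ppm1h in 52.2%, Ust in 15.9%, Auts2 in 7.96% and Runx2 in 2.65%, and ordinary CD4 T barcodes in 27.8%, 5.85%, 1.95% and 2.93%. All 4 genes were thus found in low and ordinary barcodes of both T lineages. Between low and ordinary CD4 T barcodes the intervals of Ppm1h lay apart, 42.6% to 61.7% and 21.8% to 34.5%. They overlapped for Ust (9.72% to 24.0% and 3.06% to 10.0%), Auts2 (3.71% to 14.6% and 0.534% to 4.92%) and Runx2.

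**Figure D1:**
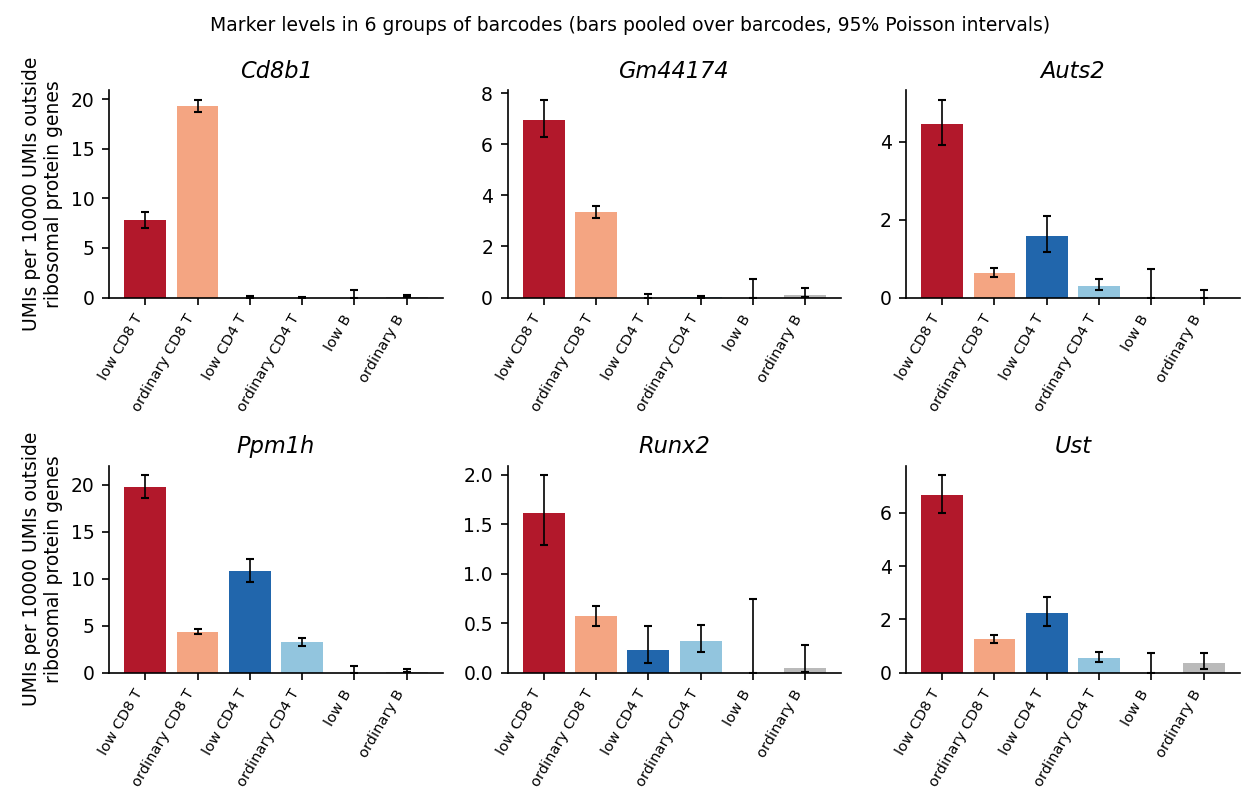
Levels of 6 genes in 6 groups of barcodes, as UMIs per 10000 UMIs outside ribosomal protein genes, with bars pooled over barcodes and exact 95% Poisson intervals. Ppm1h, Ust, Auts2 and Runx2 stand highest in low ribosomal CD8 T barcodes, while Cd8b1 stands at 7.78 there and at 19.3 in ordinary CD8 T barcodes.

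A transcript beside the coreceptor genes went the other way from Cd8b1. Gm44174, a long non-coding RNA gene at chr6:71329842-71350268 between Cd8b1 and Cd8a (chr6:71350411-71356157) and on the same strand as both, was not used by the rule and was chosen after its values had been seen. It had 367 UMIs in 108 members, with a median of 1.5 and a highest value of 13, and 0 UMIs in the 113 low ribosomal CD4 T barcodes. Its level was 6.96 in members and 3.34 in ordinary CD8 T barcodes, a ratio of 2.08 (1.83 to 2.36), where Cd8a, with 136 UMIs in members, had a ratio of 0.387 (0.322 to 0.461). In ordinary CD4 T barcodes, 1 UMI of it was counted among 205 barcodes. Thinned to 900 UMIs outside ribosomal protein genes, it was found in 44.0% of members and 26.8% of ordinary CD8 T barcodes. Among barcodes under 4000 UMIs its ratio was 1.45, below the 2-fold limit. Whether these UMIs came from a transcript of its own or from RNA of its neighbours was not tested.

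Across all genes the split moved many values. Of 9256 genes with at least 20 UMIs in both groups together, 2191 (23.7%) were at least 2-fold higher in members than in ordinary CD8 T barcodes and 1878 (20.3%) at least 2-fold lower, and the median ratio was 1.13. Genes called higher made up 53.8% of all called genes, 76.5% when levels were taken per 10000 of all UMIs and 44.2% when the median gene ratio was set to 1, so that the direction with more calls depends on the scaling. At the top stood Plcl1, a gene related to phospholipase C that spans 348 kb, with 34 UMIs in members and 9 in ordinary CD8 T barcodes and a ratio of 16.8 (7.89 to 39.8). It was followed by Cnnm2, a magnesium transport gene, at 12.6 and by Pbx3, a homeobox transcription factor, at 11.7. Pbx3 had 29 UMIs in members and 11 in ordinary CD8 T barcodes. Its ratio was 7.18 among clonotyped barcodes and 25.9 without barcodes holding a UMI of Ccl5, Gzmk, Gzma, Gzmb or Cx3cr1. Also among the 12 highest were Gm43065, 2310016D23Rik, Lrp12, Bmpr1a, Stxbp4, Auts2 and Adgrv1, with ratios between 6.67 and 8.58. Bmpr1a, a receptor for bone morphogenetic proteins, had 38 UMIs in 26 members and a ratio of 7.68. Among barcodes under 4000 UMIs the ratio of Bmpr1a was 3.63, that of Gm43065 2.72, that of 2310016D23Rik 2.97 and that of Auts2 13.4. Among clonotyped barcodes alone, Plcl1 and Adgrv1 each stood at a ratio of 1.65, and the other 10 of the 12 highest genes stayed at least 2-fold higher under every alternative that gave them a value.

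The lowest ratio was that of a nuclear gene for a mitochondrial protein. Ndufs8, a subunit of respiratory complex I that spans 4.09 kb, had 1 UMI in members and 221 in ordinary CD8 T barcodes, a ratio of 0.0201 (0.000507 to 0.113). Uqcr10 of complex III had 4 against 535 UMIs and a ratio of 0.0333, and Mrpl36, a protein of the mitochondrial ribosome, 1 against 167. Sec61g, a subunit of the channel that moves proteins into the endoplasmic reticulum, had 14 against 1165 UMIs and a ratio of 0.0535. Also among the 12 lowest were Gm11808, Acyp1, Ndufb1-ps, S100a9, Borcs8, Insl6 and Scand1. S100a9, a neutrophil gene, is among them because 1 ordinary CD8 T barcode held 103 of its 105 UMIs. Of the genes with no UMI in members, Bex3 had 121 UMIs in ordinary CD8 T barcodes and was at least 9.07-fold lower against a floor of 3 counts over the members, and the chemokine gene Xcl1 had 52 and was at least 3.90-fold lower.

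Of the 12 genes with the highest ratios, 8 span over 100 kb, while Gm43065 spans 2.09 kb, and the 12 lowest span 0.504 kb (Gm11808) to 16.7 kb (Acyp1). Span and ratio were related across the transcriptome as well, and whether intronic reads were counted in the matrix is not given in the sources used here. Gene spans were matched by Ensembl identifier for 9231 of the 9256 genes (99.7%). The 696 genes under 5 kb had a median log2 ratio of -1.47, and 68.4% of them were at least 2-fold lower and 2.30% at least 2-fold higher. The median was -0.57 for 5 to 20 kb, 0.29 for 20 to 50 kb, 0.97 for 50 to 100 kb and 1.32 for 100 to 200 kb. The 358 genes over 200 kb had a median of 1.66, and 84.6% of them were at least 2-fold higher and 2.79% at least 2-fold lower. Across 9171 genes, Spearman's rho between span and log2 ratio was 0.695, a description in which all genes come from the same library and are not independent. Spearman's rho of the total exon length with the log2 ratio was 0.549. With the exon length held at 2 to 4 kb the medians by span went from -1.21 for genes under 5 kb to 0.38 for the 20 genes of 100 to 200 kb and 1.03 for the 7 over 200 kb, a narrower range than over all genes. With the span held at 20 to 50 kb the medians by exon length went from -0.50 at 1 to 2 kb to 0.45 over 8 kb, with the 5 genes under 1 kb at -0.09. Both lengths thus moved with the ratio.

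The same order was seen when low and ordinary barcodes of other lineages were compared. In CD4 T barcodes the median log2 ratio went from -1.70 under 5 kb to 1.5 over 200 kb, with 19.6% of 7212 genes at least 2-fold higher and 22.3% at least 2-fold lower. In B barcodes it went from -2.05 to 1.78, with 29.5% of 2763 genes higher and 29.6% lower. Of the genes tested in both T lineages, 1106 were called higher in both, which is 61.7% of the calls in CD8 T and 79.1% of those in CD4 T barcodes, and 1132 were called lower in both (79.2% and 70.9%). These comparisons share no barcodes. Between members and low ribosomal CD4 T barcodes the medians lay between 0.01 and 0.10 in every span class.

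**Figure D2:**
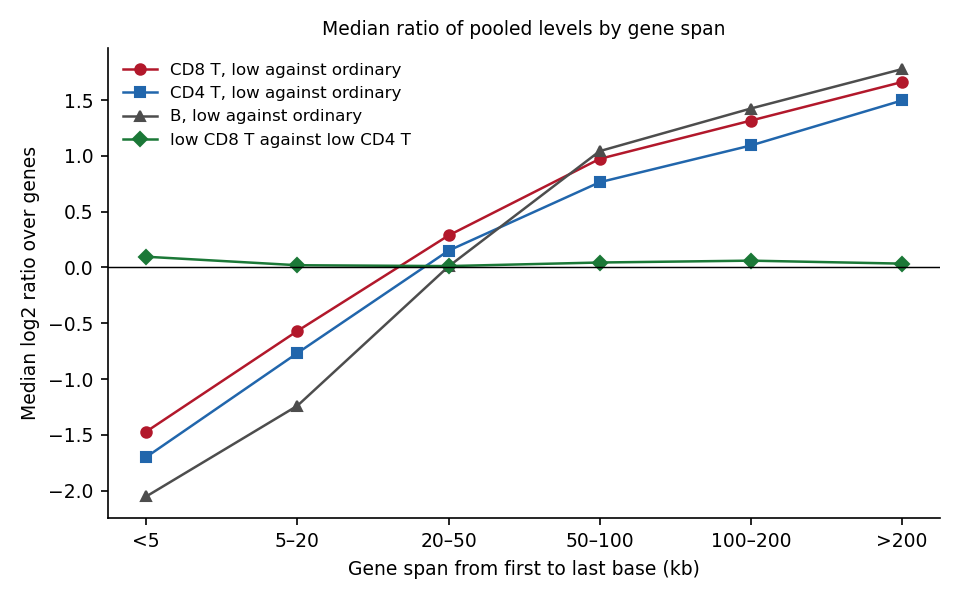
Median log2 ratio of pooled levels over genes in 6 classes of gene span, for low against ordinary barcodes of CD8 T, CD4 T and B cells and for low CD8 T against low CD4 T barcodes. The first 3 lines go from between -2.05 and -1.47 under 5 kb to between 1.5 and 1.78 over 200 kb, and the last stays near 0.

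Barcode by barcode, genes over 100 kb took 11.1% to 43.0% of a member's UMIs outside ribosomal protein genes, with a median of 31.0%. In ordinary CD8 T barcodes they took 4.18% to 28.8% with a median of 12.6%. The groups overlapped, but 147 of 150 members and 23 of 459 ordinary barcodes lay above 20%, and 97 members lay above every ordinary barcode. Among barcodes of 2000 to 4000 UMIs the medians were 31.0% in 89 members and 13.5% in 55 ordinary barcodes. Low ribosomal CD4 T and B barcodes had medians of 30.5% and 31.4%.

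Members were graded rather than uniform. Those with a ribosomal protein share under 2% (41 members) placed a median of 35.9% of their UMIs on genes over 100 kb, those of 2 to 3% (36) 32.7%, those of 3 to 5% (41) 29.0% and those of 5 to 10% (32) 24.8%. The 32 ordinary CD8 T barcodes of 10 to 15% had a median of 13.4%. Over the same 5 classes, a list of 17 abundant cytoplasmic messages such as Actb and Tmsb4x had levels of 42.4, 53.0, 88.4, 178 and 478. Over the 4 classes of members Auts2 went from 5.97 under 2% over 4.48 and 4.19 to 2.80 at 5 to 10%. The other markers were not ordered in this way, with 22.7, 23.5, 18.5 and 13 for Ppm1h, 6.18, 8.74, 6.65 and 4.88 for Ust, and 2.64, 1.05, 1.52 and 1.08 for Runx2, which stood at 1.78 at 10 to 15%. Mitochondrially encoded messages did not follow, with levels of 302, 338, 376 and 362 within members and 196 at 10 to 15%. Across the 150 members, Spearman's rho of the ribosomal protein share with the mitochondrial share was 0.141, with the Malat1 share -0.0155 and with the UMI total 0.0174, shares that come from the same UMIs of each barcode.

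**Figure D3:**
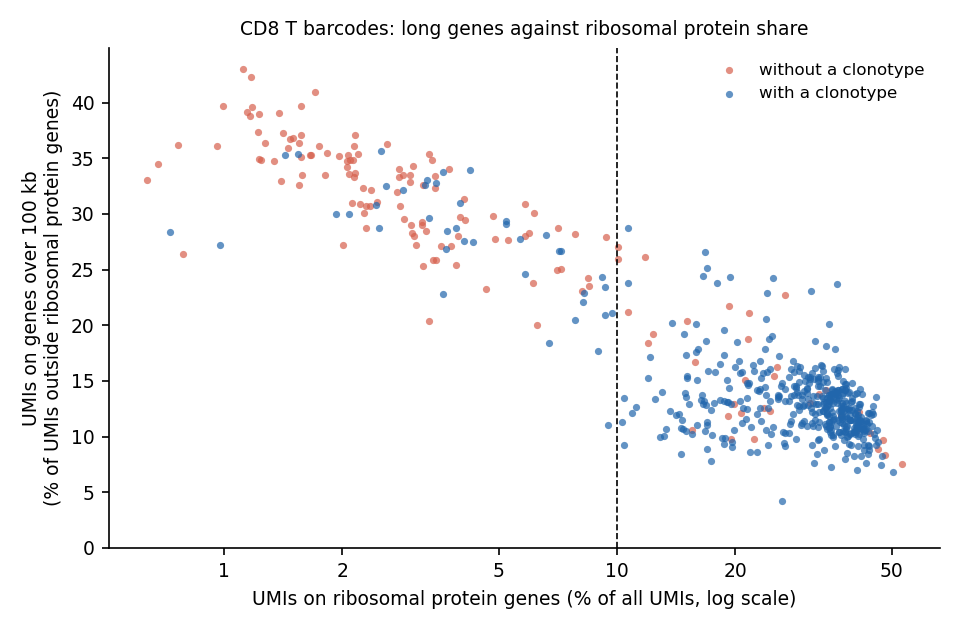
Each point is 1 of 609 CD8 T barcodes, by the percentage of all UMIs on ribosomal protein genes (log axis) and the percentage of other UMIs on genes over 100 kb, coloured by whether the barcode had a clonotype, with a dashed line at the limit of 10%. The median share on long genes is 35.9% in the class at the left, 24.8% in the class just under the limit and 13.4% in the class just above it.

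A clonotype was rare in members although it was no part of the rule. It was given to 41 of 150 members (27.3%, 20.4% to 35.2%) and to 425 of 459 ordinary CD8 T barcodes (92.6%, 89.8% to 94.8%). At 2000 to 4000 UMIs the shares were 20 of 89 (22.5%, 14.3% to 32.6%) and 45 of 55 (81.8%, 69.1% to 90.9%), and at 4000 UMIs and over 20 of 46 (43.5%) and 378 of 396 (95.5%). Under 2000 UMIs 1 of 15 members (6.67%, 0.169% to 31.9%) and 2 of 8 ordinary barcodes (25%, 3.19% to 65.1%) had one, and the intervals overlapped. Barcodes were not matched for their totals within these bands. Counting any productive contig raised the members' share to 45 of 150 (30.0%). Low ribosomal CD4 T barcodes had a clonotype in 43 of 113 (38.1%, 29.1% to 47.7%), an interval that overlaps that of the members. B barcodes had none, 0 of 19 low (up to 17.6%) and 0 of 59 ordinary.

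Within members the share of clonotyped barcodes was larger where the ribosomal protein share was larger. It was 5 of 41 (12.2%) under 2%, 6 of 36 (16.7%) at 2 to 3%, 13 of 41 (31.7%) at 3 to 5% and 17 of 32 (53.1%) at 5 to 10%. Above the limit it was 26 of 32 (81.3%) at 10 to 15%, 91 of 105 (86.7%, 78.6% to 92.5%) at 15 to 25% and 308 of 322 (95.7%, 92.8% to 97.6%) over 25%. The intervals of neighbouring classes overlapped except between the last pair, while the interval of the lowest class, 4.08% to 26.2%, did not reach that of the class at 5 to 10%. Of the 41 clonotyped members, 38 had a TRB chain, 31 a TRA chain and 28 both. Over the clonotyped barcodes that had the chain, members had a median of 4 TRB UMIs and 2 TRA UMIs, against 9 and 4 in ordinary CD8 T barcodes. Members with a clonotype placed a median of 28.4% of their UMIs on genes over 100 kb and those without 33.0%.

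**Figure D4:**
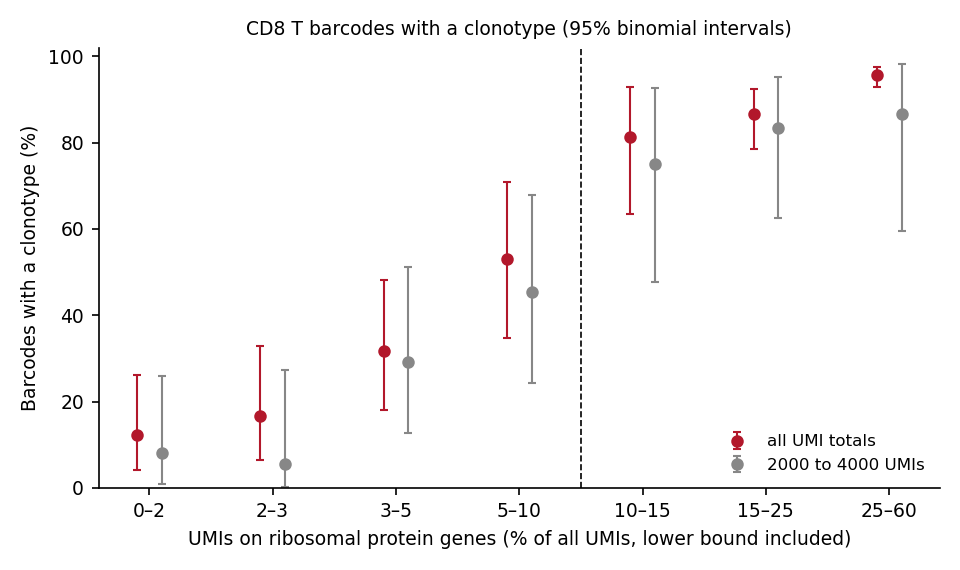
Percentage of CD8 T barcodes with a clonotype in 7 classes of the ribosomal protein share, for all barcodes and for those of 2000 to 4000 UMIs, with exact 95% binomial intervals and a dashed line at the limit of 10%. The share is 12.2% in the lowest class, 53.1% just under the limit and 95.7% in the highest class.

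The 3 CD3 genes of the list of the TCR complex and proximal signalling were used by the rule. The other 19 genes of that list each had UMIs in members, and 5 of them were at least 2-fold higher and 3 at least 2-fold lower, shares near the 23.7% and 20.3% over all genes, which are also the background for the counts in the lists below. Themis, an adaptor for TCR signals in developing T cells, had 1300 UMIs in 147 members and a level of 24.7 against 6.37 in ordinary CD8 T barcodes. Skap1, Prkcq and Ptprc, which act downstream of the receptor or set its threshold, were 2.67-, 2.76- and 2.34-fold higher. Prkcq had 822 UMIs in 146 members. Thy1 and Lat, which span under 6 kb each, stood at ratios of 0.398 and 0.454. Cd3d, used by the rule, had 153 UMIs in 82 members and a ratio of 0.242, and the constant gene Trbc2 one of 0.360.

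Transcription factors of resting T cells were among the higher genes. In the list of 13 naive and quiescence genes, 6 were at least 2-fold higher, 2 were at least 2-fold lower, and the median ratio was 1.64. Lef1, a partner of Tcf7 in naive T cells, had 1094 UMIs in 141 members, a median of 7 per member and a level of 20.8 against 9.52, a ratio of 2.18 that was 1.78 among clonotyped barcodes. Satb1 and Bach2, a chromatin organiser and a repressor of effector genes, were 3.49- and 4.02-fold higher, Foxp1 3.48-fold, Foxo1 2.50-fold and Ets1 2.78-fold. Tcf7 (0.977, 0.873 to 1.09) stood near an equal level. The short genes Klf2, which directs recirculation, and Igfbp4 had ratios of 0.457 and 0.322. All 4 genes of the RUNX list were at least 2-fold higher, with Runx1 at 3.76, Runx3 at 2.06 and their partner Cbfb at 2.21. Among barcodes under 4000 UMIs Runx2 stood at 1.58 and Runx3 at 1.65, so that the call of each was lost. Bcl2, which protects T cells from apoptosis, had 1494 UMIs in 125 members and a level of 28.4 against 7.93, although 1 member alone held 82 UMIs. In the apoptosis list of 10 tested genes it was the gene called higher and 2 were lower, Bax among them at 0.246, counts no larger than the background over all genes.

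Effector and memory genes were lower as a list, and members differed among themselves in them. Of 21 genes tested, 11 were at least 2-fold lower and 1 higher in members, with a median ratio of 0.438. Ccl5, a chemokine of memory CD8 T cells, had 382 UMIs in 39 members, of which 1 member held 179, and a level of 7.25 against 77.5 in ordinary CD8 T barcodes. Ly6c2 had a ratio of 0.161 and S100a6 0.126. In the CD8 list, 5 of 10 genes were at least 2-fold lower and 1, Runx3, higher. Nkg7, a cytotoxic granule gene of that list, had 186 UMIs and a ratio of 0.216. Zeb2, a transcription factor of terminal effector cells, was the gene that was higher, with 64 UMIs in 11 members and a ratio of 2.85. That value turned to 0.968 among barcodes under 4000 UMIs. Of 8 inhibitory receptor genes tested with Tox, 2 were at least 2-fold higher, near the background of 23.7%, and 4 lower, where the background was 20.3%. The higher ones were Tox, a transcription factor gene that spans 305 kb, with 324 UMIs in 91 members and a ratio of 2.90, and the receptor gene Btla, with 65 UMIs in 47 members and a ratio of 2.43 (1.77 to 3.31). The lower ones were Pdcd1 with 5 UMIs, Tigit with 8, Lag3 with 1 and Cd160 with 4 in all members. Ctla4 had 19 UMIs and a ratio of 1.11 (0.635 to 1.86).

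A UMI of Ccl5, Gzmk, Gzma, Gzmb or Cx3cr1 was found in 40 of 150 members (26.7%, 19.8% to 34.5%), in 46.0% of ordinary CD8 T, 5.31% of low ribosomal CD4 T and 2 of 19 low ribosomal B barcodes. Free RNA at 5% would give 29.2 Ccl5 UMIs over all members. The 40 members and the other 110 had median totals of 3382 and 3403 UMIs. Zeb2 had all of its 64 UMIs in 11 of the 40 members and 0 in the 110. Il2rb, a receptor chain for interleukins 2 and 15, had levels of 6.12 (4.93 to 7.52) and 1.67 (1.28 to 2.13), Eomes 1.75 and 0.317, Runx2 3.63 and 0.819, and the activating receptor Klrk1 1.75 and 0.185. The other members had more Lef1, 23.8 (22.3 to 25.4) against 13 (11.2 to 15), more Satb1, 19.0 against 12.2, and more of the integrin gene Itgae, 1.43 against 0.0673. Auts2 stood at 5.23 in them and 2.49 in the 40, while Bcl2 (28.3 and 28.5) was alike within counting error. The 40 members were chosen by the UMIs of Ccl5, Gzmk, Gzma, Gzmb and Cx3cr1 in the same barcodes, so the split is a description.

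Messages of translation, of the cytoskeleton and of oxidative phosphorylation were lower in members. Of 15 translation genes outside the ribosomal protein symbols, 14 were at least 2-fold lower, with a summed level of 73.6 against 509 and a median ratio of 0.158. Eef1a1, an elongation factor, had 23.2 against 138, and Fau, a ubiquitin-like fusion to a ribosomal protein that escapes the symbols of the rule, a ratio of 0.0849. All 17 abundant cytoplasmic messages were at least 2-fold lower, with a median ratio of 0.181. Actb had a median of 3 UMIs per member and 35 per ordinary CD8 T barcode, and Tmsb4x a ratio of 0.121. Of 79 nuclear-encoded oxidative phosphorylation genes, a list chosen after its values had been seen, 73 were at least 2-fold lower and none higher, with a median ratio of 0.151. The 13 mitochondrially encoded genes had a median ratio of 1.52. MHC class I genes were lower in part, 4 of 9, with H2-K1 at 0.435 and B2m at 0.226, while Nlrc5, their long transactivator gene, stood at 2.14. Of 11 stress and immediate early genes tested, 6 were at least 2-fold lower and none at least 2-fold higher.

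The lists were also set against genes of a like span. When each gene's ratio was divided by the median ratio of its span class, a step chosen after seeing the data, the translation list stood at 0.235 and the oxidative phosphorylation list at 0.247, still far below 1, and the abundant cytoplasmic list at 0.379. The naive and quiescence list (1.12), the RUNX list (1.12), the TCR list without the CD3 genes (0.947) and MHC class I (1.09) lay near their span classes. The memory and effector list stood at 0.693, the CD8 list without Cd8a and Cd8b1 at 0.691 and the list of inhibitory receptors with Tox at 0.628. The 13 mitochondrially encoded genes, which are short, stood at 4.22, each of them over 2. The stress and immediate early list, lower in part before this step, stood at 1.28, on the other side of 1. The nuclear long non-coding RNA list, with 3 of 5 genes at least 2-fold higher, stood at 1.41, with Malat1, at 217 against 90.4, its most abundant gene and Kcnq1ot1 at a ratio of 3.51. Among barcodes under 4000 UMIs the ratio of Malat1 was 1.35.

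With the ribosomal protein share low on both sides, members differed from low ribosomal CD4 T barcodes in far fewer genes. Of 6386 genes tested, 482 (7.55%) were at least 2-fold higher in members and 248 (3.88%) at least 2-fold lower. The highest ratios among genes with a UMI on both sides were 1700062C10Rik, with 86 UMIs in 20 members and 1 UMI in CD4 T barcodes, Nedd4, a ubiquitin ligase, with 52 and 1, Dock5 with 43 and 1, and Crtam, an adhesion molecule of cytotoxic lymphocytes, with 42 and 1. Tmem163 and Gria3 followed. With no UMI in low ribosomal CD4 T barcodes, Itgae had 55 UMIs in 30 members and Gzma 46 in 3 members, of which 42 were in 1 member. Of 9 genes of the CD8 list that could be read, 7 were at least 2-fold higher and none lower. These genes passed the filter of 20 UMIs through the members, where most are high, so the count is a description. Runx3, which sets the CD8 lineage, was 9.29-fold higher, with 242 against 15 UMIs, and Runx2 6.99-fold. The lowest was St8sia6, a sialyltransferase, with 3 UMIs in 2 members and 205 UMIs in CD4 T barcodes, followed by Nav2, Myo10, Ly6c1, Gpm6b and Itgb3. Cd40lg, the helper signal of CD4 T cells, had 0 and 46 UMIs, and in the CD4 list 1 of 6 genes was higher, Cxcr5 with 37 and 4 UMIs, and 1 lower.

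The lineage differences of ordinary barcodes were read again in the low ones, which hold no barcode in common with them. Of 7552 genes with at least 50 UMIs in ordinary CD8 T and CD4 T barcodes together, 266 (3.52%) were at least 2-fold higher in ordinary CD8 T barcodes and 209 (2.77%) at least 2-fold lower. With at least 20 UMIs, as in the other comparisons, 5.47% of 9329 genes were higher and 4.63% lower. Of the 266, 229 (86.1%) had a higher level in members than in low ribosomal CD4 T barcodes, 35 a lower one and 2 no UMI in either, where 53.4% of all 7552 genes were higher. Of the 209, 169 (80.9%) had a lower level in members and 40 a higher one, where 46.5% of all 7552 were lower. With at least 20 UMIs in the low barcodes, 151 of the 266 could be called, a filter that a gene could pass through the group where it was high. At least 2-fold higher in members were 104 of these and at least 2-fold lower 1, with a background of 7.55% and 3.88%. Of 164 such genes among the 209, 63 were at least 2-fold lower and 1 was at least 2-fold higher. Klrd1, a receptor for MHC class I-like molecules, was 22.1-fold higher in ordinary CD8 T barcodes and 13.1-fold higher in members, and Samd3 14.2- and 22.2-fold. Trat1, an adaptor of the TCR, stood at 0.162 and 0.178, and Tbc1d4 at 0.0916 and 0.133.

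**Figure D5:**
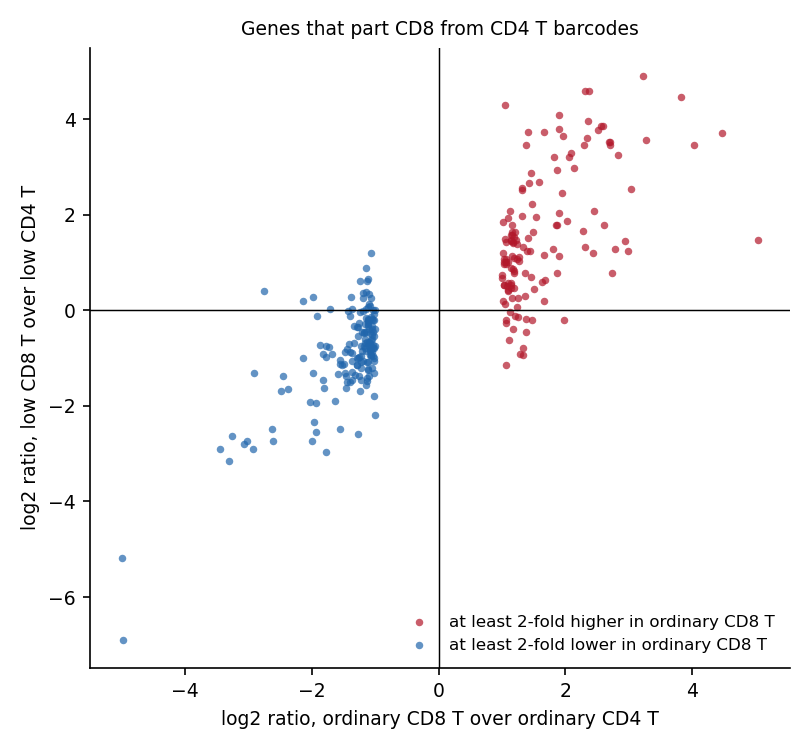
Log2 ratio of CD8 T to CD4 T barcodes for lineage genes, in ordinary barcodes (horizontal axis) and in low ribosomal barcodes (vertical axis), for the 135 and 163 genes with at least 20 UMIs in the low barcodes together and a UMI in all 4 groups, a filter that a gene could pass through the group where it was high. Red genes were at least 2-fold higher and blue genes at least 2-fold lower in ordinary CD8 T barcodes, and most keep their side of 0 on the vertical axis.

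Several defining markers of other blood cells were at 0 in members, while the B cell and monocyte lists as a whole were not. The B cell genes Ms4a1, Pax5 and Ebf1 had 0 UMIs, and the most abundant gene of that list, Ralgps2, had 76 UMIs at a level of 1.44, with 2.44 in low ribosomal CD4 T barcodes. That list of 14 genes summed to 125 UMIs in members, a level of 2.37, against 282 in low ribosomal B barcodes. It holds Cd79b, which was used to choose the B barcodes, and members were chosen without Cd79a UMIs. The contrast is thus partly set by the rules. Of 6 neutrophil genes 5 were at 0, with 1 UMI of S100a9. The NK list summed to 10 UMIs with Ncr1 at 0, the gamma delta list to 12, the platelet list without Pf4 to 13 and the erythroid list to 4. The monocyte list summed to 51 UMIs, of which 39 were Ms4a6c and 0 were Csf1r. The basophil list had 1 UMI, and the dendritic list 21, all of them Bst2. All 7 SCLC genes, Chga among them, were at 0.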

How the data were processed

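The deposited matrix holds raw UMI counts per gene and barcode, which the authors made with Cell Ranger (version 4 per the file headers), without a cell filter or normalization. GRCm38 is named in the submitters' processing notes, and whether reads in introns were counted is not given in the sources used here. The deposited contig table gives the TCR contigs, their UMI counts and the authors' clonotypes, and 8 of its barcodes had no entry in the matrix.

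Counts were pooled by group and divided by the UMIs outside ribosomal protein genes, with symbols starting with Rpl, Rps and a digit or with Rplp. Ratios used genes with at least 20 UMIs in both groups together, without genes of the rule, TCR, immunoglobulin, mitochondrial and ribosomal protein genes (the lists keep these except genes of the rule), and a call is a 2-fold difference. Ratio intervals are exact conditional binomial. Low ribosomal CD4 T barcodes needed a Cd4 UMI and none of Cd8a or Cd8b1. B barcodes needed at least 2 UMIs of Cd79a and Cd79b, no CD3 gene UMI and no Pf4. Named genes were the given markers, the 12 highest and 12 lowest ratios to ordinary CD8 T, the 6 highest and 6 lowest to low ribosomal CD4 T barcodes, and the gene lists, of which some are not reported here. Members and lists were chosen with earlier results of these data known. Python 3.11.15, SciPy 1.17.1 and Scanpy 1.11.5 were used. On simulated counts for the comparison of members with ordinary CD8 T barcodes (9281 genes), 100% of 4-fold changes and 4.98% of unchanged genes were called. The changed genes were drawn only from genes with many more UMIs than the limit of 20. The simulated counts held counting error only, with no spread between barcodes. They thus do not give the rate of calls for genes whose UMIs lie in few barcodes, nor that of 4-fold changes in genes near the limit. Alternatives were other limits of the rule, denominators and filters on UMIs, doublets and free RNA removed, and subsets by depth, clonotype and effector UMIs.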

Additional observations from a re-analysis of the deposited data

How the results depend on the processing

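Of 490 values under alternatives, 1 reversed: the ratio of Zeb2 became 0.968 among barcodes under 4000 UMIs. Of the summary values, 41 were unchanged and 25 moved, and of the ratios of single genes 308 were unchanged and 115 moved, where unchanged means within 1.5 times for counts of genes or barcodes and for span medians, and within the counting interval of the reported value for shares and ratios. The cause of these moves was not tested unless stated. Asking for at least 2 UMIs of the CD3 and of the CD8 genes left 92 members, of which 38.0% had a clonotype, and a ribosomal protein limit of 5% or 15% gave a clonotype in 20.3% or 36.8%. Genes at least 2-fold higher and lower than in ordinary CD8 T barcodes numbered 3706 and 1137 per all UMIs, 1363 and 1191 of 5320 genes with at least 100 UMIs, 4086 and 4889 of 15269 with no filter on UMIs, and 1203 and 786 of 4575 among barcodes under 4000 UMIs. Against low ribosomal CD4 T barcodes, 62 were higher and 32 lower with at least 100 UMIs. Lineage genes needed at least 20 UMIs in the low barcodes, a filter that a gene could pass through the group where it was high. Those higher in ordinary CD8 T barcodes were higher in members in 90.1%, in 96.8% with at least 100 UMIs and in 98.4% at 3-fold. Those lower were lower in 86.6% and in 94.6% with at least 100 UMIs. Of those at least 3-fold lower, most were lower in members, but Casp4, Ctla4, Mdfic and Nrgn stood at 1.32, 1.22, 1.15 and 1.02. At 2500 UMIs, where shallower barcodes drop out, Cd8b1 was found in 83.9%, Ppm1h in 96.8% and Ust in 58.1% of members, and at 900 UMIs outside ribosomal protein genes, chosen after seeing the data, Cd8b1 in 48.7% and Ppm1h in 68.0%. Per all UMIs, the summed cytoplasmic, translation and nuclear long non-coding lists had ratios of 0.237, 0.208 and 3.45.

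Gene span medians under alternatives, 4 of them chosen after seeing the data, kept their sign at both ends. No paired analysis was possible because there is 1 library. Mouse and library cannot be told apart.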
